A study of Mus musculus with 18 samples.

Results

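Cerebellum of mice that carry a small deletion in the circular RNA Cdr1as, at its site for miR-671 (Cdr1as671), was compared with cerebellum of wild-type mice (WT) by small-RNA sequencing. The comparison uses all 3 Cdr1as671 and all 3 WT cerebellum libraries, 6 of the 18 libraries of the series, and every mature miRNA of the count table. The mutant allele is labelled as an 18-nt deletion, and the sources used here do not give its boundaries. All mice were males of the C57BL/6J strain aged 1 month, and both genotypes carry intact Cyrano. A second pair of groups carried the same Cdr1as deletion on a background without the long noncoding RNA Cyrano. It consisted of double mutants (CyrKOCdr1as671) and Cyrano single mutants (CyrKO), with 3 cerebellum libraries each. The labels do not say whether libraries came from separate animals or how many mutant lines were used, so p-values measure the spread between these libraries.

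Cdr1as is a circular RNA made mainly in neurons. It holds many sites for miR-7 and a single, nearly fully paired site for miR-671, through which Argonaute 2 can slice it. In the same circuit Cyrano pairs extensively with miR-7 and directs that miRNA to degradation. A miRNA hairpin gives 2 strands, of which the guide is mostly kept in Argonaute and the passenger is mostly discarded, and a guide finds its targets mainly through its seed, bases 2 to 8.

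The sequences of miR-671-5p and of its site are shown because they define the mutated interaction. The miRNA is written in RNA letters with its seed in capitals, from RefSeq (GRCm38.p6). The site, written as DNA from a GENCODE transcript of the Cdr1as locus, has capitals at the bases complementary to miR-671-5p.
mmu-miR-671-5p: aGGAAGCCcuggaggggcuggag
miR-671 site: tTCCAGCatCTCCAGGGCTTCCa
The site lies at chrX:61186029-61186051 on the plus strand of GRCm38, in the exon of C230004F18Rik-206 that spans 61183248 to 61186174. Of its 23 bases, 19 are complementary to miR-671-5p and 2 more form G:U pairs, while the next best stretch of the 3354-nt transcript has 17 complementary bases. The same transcript holds 123 copies of GTCTTCC, the match to the miR-7 seed, read on the transcript strand. Of 8163 other transcripts within 10% of its length, 27.3% hold this motif, at most 4 times.

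The Cdr1as671 libraries held 8599697 to 10564334 miRNA reads and the WT libraries 10047721 to 12209429. Of 1841 listed miRNAs, 1322 had a read in these libraries and 665 had enough reads to be tested. Levels are given in CPM, the reads of a miRNA as a share of its library's miRNA reads on the usual CPM scale. The cerebellar miR-206-3p averaged 1101 ± 130.0 CPM in Cdr1as671 and 901 ± 65.2 CPM in WT cerebellum (SD, n = 3 each), against 5.77 ± 1.15 CPM in WT hippocampus (n = 3). Cdr1as671 libraries 1 and 2 were closer to each other (chi-square per degree of freedom 40.2 over miRNA counts) than either was to library 3 (533.6 and 488.6). WT pairs ranged from 204.9 to 430.9 on the same measure, in which abundant miRNAs weigh most. Correlations of log2(CPM + 1) were 0.9952 for mutant libraries 1 and 2, 0.9943 for 1 and 3 and 0.9914 for 2 and 3. For WT pairs they were 0.9949 to 0.9969.

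miR-671-5p, the miRNA whose site is deleted, rose in Cdr1as671 cerebellum and had the lowest p of the comparison. Its level was 234, 201 and 223 CPM in the 3 Cdr1as671 libraries, against 111, 129 and 127 CPM in the 3 WT libraries. The groups did not overlap, and the lowest mutant library stood well above the highest WT library. The mean was 219 ± 16.7 CPM in Cdr1as671 and 122 ± 9.55 CPM in WT (SD, n = 3 each), a 1.75-fold rise (log2 change 0.81, SE 0.12, edgeR quasi-likelihood test with Benjamini-Hochberg adjustment, adjusted p = 0.0125). Without Cdr1as671 library 1, WT library 1 or WT library 3 it no longer passed, with log2 changes of 0.78, 0.77 and 0.84 and adjusted p up to 0.164.

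The other strand of the hairpin, miR-671-3p, did not follow. It had 23.4, 22.3 and 16.5 CPM in Cdr1as671 libraries and 21.0, 20.1 and 22.6 CPM in WT libraries, with overlapping groups (log2 change -0.08, SE 0.14, edgeR adjusted p = 0.815). The log2 ratio of 5p to 3p reads, which does not depend on scaling between libraries, was 3.32, 3.17 and 3.76 in Cdr1as671 and 2.40, 2.68 and 2.49 in WT. Every mutant ratio exceeded every WT ratio. The difference was 0.89, with an exact two-sided permutation p of 0.1, the smallest that 3 against 3 libraries allow. Both strands come from Mir671 on chromosome 5, at chr5:24592114-24592211 on the plus strand (GRCm38.p6), inside an exon of Chpf2.

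The miR-7 guides, which share the seed GGAAGAC, did not pass the test without a correction for GC content. Their sequences differ from one another in few bases, so reads of one could be counted for the other.
mmu-miR-7a-5p: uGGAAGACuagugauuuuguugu
mmu-miR-7b-5p: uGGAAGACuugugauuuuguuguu
miR-7a-5p had 545, 543 and 683 CPM in Cdr1as671 and 438, 542 and 507 CPM in WT (log2 change 0.22, SE 0.13, edgeR adjusted p = 0.360). The groups just failed to overlap, with the second Cdr1as671 library barely above the highest WT library. miR-7b-5p had 195, 191 and 227 CPM in Cdr1as671 and 145, 194 and 181 CPM in WT, with overlapping groups (log2 change 0.21, SE 0.13, edgeR adjusted p = 0.410). Among the passengers of this family, miR-7a-1-3p was the most abundant and averaged 335 CPM in Cdr1as671 and 366 CPM in WT (log2 change -0.16, SE 0.10, edgeR adjusted p = 0.369). With GC content as an offset in the test, both guides passed, at log2 changes of 0.52 for miR-7a-5p and 0.54 for miR-7b-5p (edgeR adjusted p = 0.0289 and 0.0409), and miR-7a-1-3p turned to 0.02. Without Cdr1as671 library 3 the guides had 0.07 and 0.09 and did not pass. Neither of the other passengers, miR-7a-2-3p and miR-7b-3p, passed.

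Across all miRNAs, 15 of 665 passed (2.26%). Of these, 5 rose in Cdr1as671 (0.752%) and 10 fell (1.5%), and in all 15 the mutant and WT ranges were apart. Of all tested miRNAs, 86 had all mutant libraries above all WT libraries (12.9%) and 80 had all below (12%). An unadjusted p under 0.05 was found for 137 miRNAs (20.6%). The calls depended on single libraries: none passed without Cdr1as671 library 1, WT library 1 or WT library 3 (edgeR, with 77, 80 and 105 at an unadjusted p under 0.05), 1 passed without Cdr1as671 library 2 (miR-671-5p), 21 without WT library 2 and 112 without Cdr1as671 library 3. The authors' deposited table called 26 of 416 miRNAs (6.25%), 7 risen and 19 fallen, 11 of them among the 15, and it gives no adjusted p for the other 4 of the 15. With all 6 libraries, DESeq2 called 30 and edgeR with the size factors of DESeq2 called 4.

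**Figure D1:**
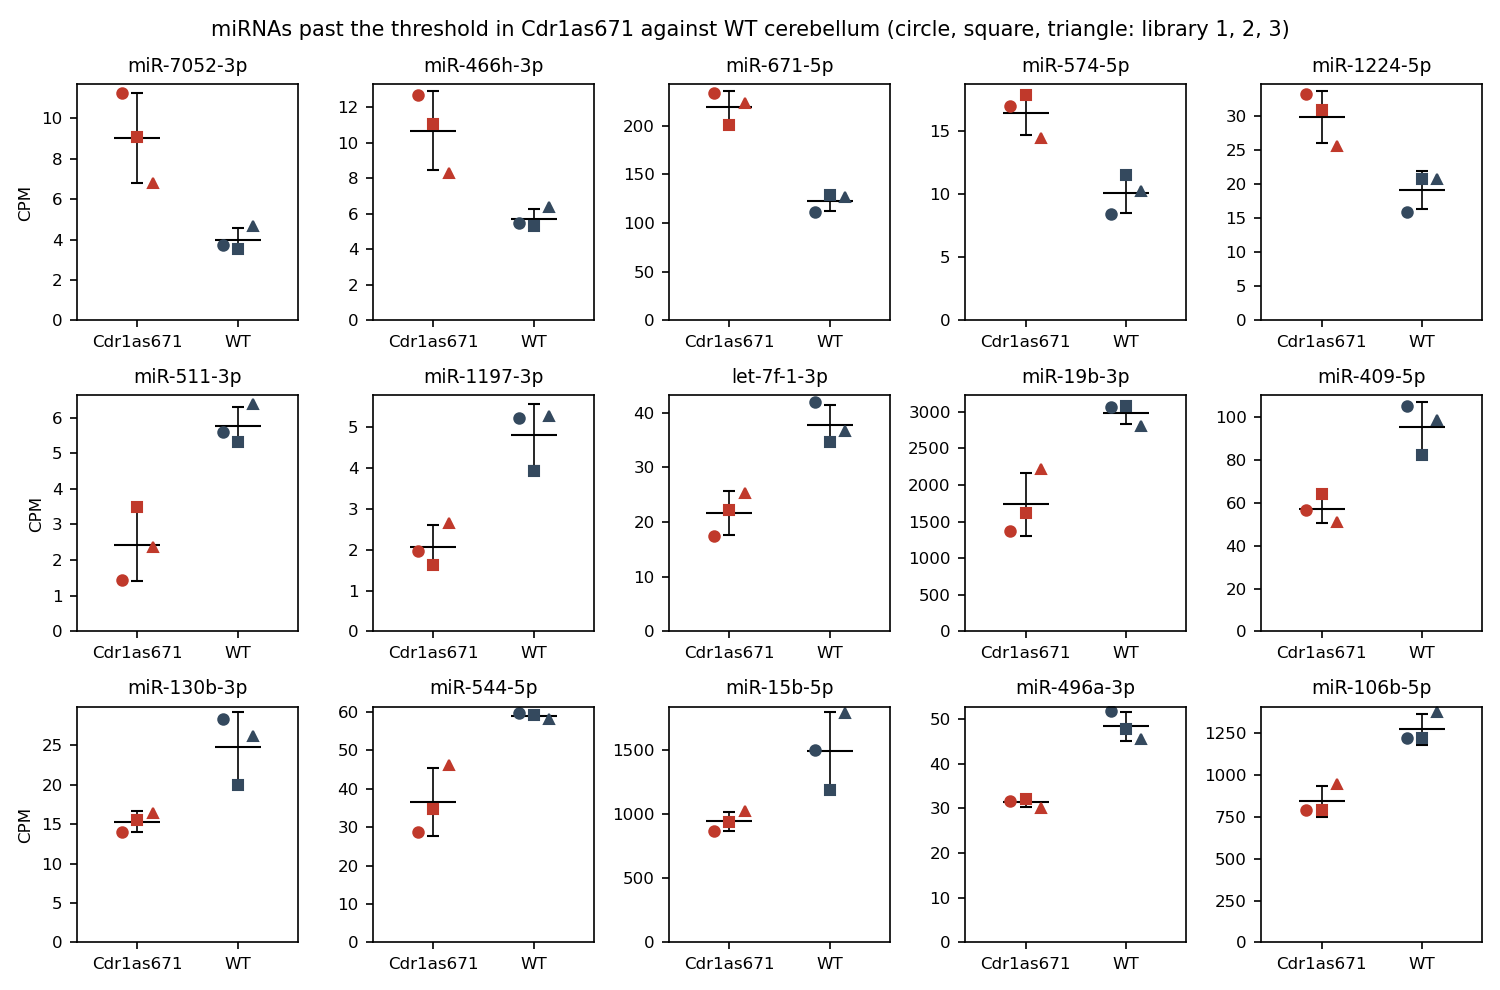
Level in CPM (vertical axes, from 0) of the 15 miRNAs that passed, in the Cdr1as671 libraries (left, red) and WT libraries (right, dark), with the mean and SD of 3 libraries. Groups do not overlap in any panel, and Cdr1as671 library 3 (triangle) is the mutant library nearest to WT in 11 of 15, a share not counted over all tested miRNAs.

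Beside miR-671-5p, 4 miRNAs of low level rose. Sequences are shown for the 3 of them with a RefSeq entry, because they share a high content of G and C or a repeat, while miR-466h-3p is named only.
mmu-miR-7052-3p: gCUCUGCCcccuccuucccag
mmu-miR-1224-5p: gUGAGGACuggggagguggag
mmu-miR-574-5p: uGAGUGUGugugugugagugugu
miR-7052-3p, from an intron of Josd2, had 11.3, 9.07 and 6.82 CPM in Cdr1as671 and 3.73, 3.52 and 4.68 CPM in WT (log2 change 1.15, SE 0.22, edgeR adjusted p = 0.0276). miR-466h-3p, of the many-copy miRNA cluster in an intron of Sfmbt2, had 12.7, 11.1 and 8.33 CPM in Cdr1as671 and 5.50, 5.32 and 6.37 CPM in WT (log2 change 0.86, SE 0.19, edgeR adjusted p = 0.0426). In both miRNAs the third Cdr1as671 library was closest to WT, and reads of near-identical copies make the count of miR-466h-3p uncertain. miR-1224-5p, processed by splicing from a short intron of Vwa5b2, had 33.2, 30.8 and 25.7 CPM in Cdr1as671 and 15.98, 20.8 and 20.7 CPM in WT (log2 change 0.60, SE 0.14, edgeR adjusted p = 0.0498). miR-574-5p, from an intron of Fam114a1, had 16.95, 17.8 and 14.4 CPM in Cdr1as671 and 8.43, 11.5 and 10.3 CPM in WT (log2 change 0.66, SE 0.15, edgeR adjusted p = 0.0426). Its partner miR-574-3p had a log2 change of 0.43 and did not pass, and the partners miR-1224-3p and miR-466h-5p had 0.14 and 0.25.

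Of the fallen miRNAs, miR-19b-3p, miR-106b-5p, miR-130b-3p and miR-15b-5p belong to families of guides with a shared seed. They are shown with relatives of the same seed, since such guides share most targets.
mmu-miR-106b-5p: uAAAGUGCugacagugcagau
mmu-miR-17-5p: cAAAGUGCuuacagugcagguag
mmu-miR-20a-5p: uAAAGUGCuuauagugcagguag
mmu-miR-19b-3p: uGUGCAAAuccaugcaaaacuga
mmu-miR-19a-3p: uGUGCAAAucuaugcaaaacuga
mmu-miR-130b-3p: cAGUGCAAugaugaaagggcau
mmu-miR-15b-5p: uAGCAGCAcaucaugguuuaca
mmu-miR-16-5p: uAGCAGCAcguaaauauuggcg
miR-19b-3p, a main growth-promoting member of the miR-17-92 cluster, had 1377, 1623 and 2211 CPM in Cdr1as671 and 3057, 3076 and 2810 CPM in WT (log2 change -0.81, SE 0.17, edgeR adjusted p = 0.0426). miR-106b-5p, from an intron of the replication gene Mcm7, had 793, 790.0 and 950.4 CPM in Cdr1as671 and 1222, 1220 and 1380 CPM in WT (log2 change -0.63, SE 0.12, edgeR adjusted p = 0.0307). For both, the third Cdr1as671 library was the highest of the mutant libraries and still below all WT libraries. miR-19b-3p is encoded by a hairpin on chromosome 14 and by another on the X chromosome, which the counts do not separate.

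The decrease was not shared by all miRNAs of the Mcm7 intron. miR-93-5p and miR-25-3p, from the same intron as miR-106b, had log2 changes of -0.27 and -0.19 and did not pass, and the partner strand miR-106b-3p had -0.01. miR-106b-3p changed sign with the scaling, at 0.0265 with library totals alone. In the chromosome 14 cluster, miR-17-5p, miR-18a-5p, miR-19a-3p and miR-20a-5p, which were singled out after their values were seen, had log2 changes of -0.83, -0.85, -1.002 and -0.96 without passing (edgeR adjusted p = 0.105 to 0.210). In the authors' deposited DESeq2 results miR-17-5p, miR-18a-5p and miR-20a-5p did pass, at adjusted p of 0.0018, 0.0098 and 0.0016, and miR-19a-3p did not. The spread of these cluster members was wide: miR-19a-3p had 153, 187 and 341 CPM in Cdr1as671 against 487, 417 and 428 CPM in WT, with the third mutant library well above the first and second. miR-92a-3p had -0.50.

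Of the 12 tested guides of the miR-17-92 family, 2 fell and none rose. The list was drawn up by cluster (chromosome 14, X chromosome and Mcm7 intron), and its guides have different seeds. The log2 changes of all 12 were below 0, and their median was -0.56, or -0.32 in a fit of the 12 cerebellum libraries less Cdr1as671 libraries 1 and 2. The related miR-92b-3p, from outside these clusters, was not listed and had 0.15. Over all tested miRNAs 1.5% fell, 51.7% were negative and the median was -0.012. The summed level of the family was 3898, 4228 and 5527 CPM in Cdr1as671 and 7295, 6650 and 7352 CPM in WT. Every mutant sum lay below every WT sum. Much of the sum is the fallen miR-19b-3p and miR-106b-5p, with means of 1737 and 844 CPM in Cdr1as671 and 2981 and 1274 CPM in WT. Since these were called for their fall, the sum is no separate support for the family. The 9 tested passengers of the family were all negative as well, with a median of -0.29, and none passed. Of these, miR-106b-3p, at -0.01, did not stay negative under other scalings. The 4 guides of the miR-130 family were also all negative, with 1 fallen and a median of -0.43, which ran from -0.68 without Cdr1as671 library 3 to -0.14 in the fit less Cdr1as671 libraries 1 and 2.

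miR-130b-3p, the fallen member of that family, had 14.0, 15.6 and 16.5 CPM in Cdr1as671 and 28.3, 19.98 and 26.2 CPM in WT (log2 change -0.74, SE 0.16, edgeR adjusted p = 0.0426). Its relatives miR-130a-3p and miR-301a-3p had -0.39 and -0.45 and did not pass. miR-15b-5p, a family known to hold back the cell cycle and made from an intron of the chromosome-condensation gene Smc4, had 871, 937 and 1026 CPM in Cdr1as671 and 1500, 1193 and 1794 CPM in WT (log2 change -0.71, SE 0.16, edgeR adjusted p = 0.0498). Of 5 tested family members with a matched sequence, itself included, 4 were negative and it alone passed, while the far more abundant miR-16-5p had 0.04. The family member miR-497-5p, without a matched sequence, had 0.10 and did not pass. The summed level of the 5, which miR-16-5p dominates, was 41090 to 44690 CPM in Cdr1as671 and 39810 to 45090 CPM in WT. From the same Smc4 locus, miR-15b-3p and miR-16-2-3p had -0.76 each and did not pass. On the background without Cyrano miR-16-2-3p fell, with a log2 change of -0.60. Another hairpin also encodes miR-16-5p, so its level does not show that of the Smc4 locus alone.

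A second set of fallen miRNAs came from the imprinted miR-379/410 cluster on chromosome 12, which is active in neurons, and 4 of its 58 tested strands fell while none rose, against 1.5% fallen and 0.752% risen over all tested miRNAs. They are shown because they have 4 different seeds.
mmu-miR-409-5p: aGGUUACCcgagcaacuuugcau
mmu-miR-496a-3p: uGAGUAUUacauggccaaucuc
mmu-miR-544-5p: uCUUGUUAaaaagcagagucu
mmu-miR-1197-3p: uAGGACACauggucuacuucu
miR-409-5p had 56.5, 64.1 and 51.1 CPM in Cdr1as671 and 106, 82.6 and 98.8 CPM in WT (log2 change -0.79, SE 0.13, edgeR adjusted p = 0.0211). miR-496a-3p had 31.7, 32.2 and 30.2 CPM in Cdr1as671 and 51.8, 47.8 and 45.5 CPM in WT (log2 change -0.66, SE 0.12, edgeR adjusted p = 0.0211). In these miRNAs the third mutant library was the lowest, unlike in most of the others that fell.

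miR-544-5p had 28.8, 34.8 and 46.1 CPM in Cdr1as671 and 59.7, 59.1 and 58.1 CPM in WT (log2 change -0.72, SE 0.16, edgeR adjusted p = 0.0451). miR-1197-3p, near the lower limit of the test, had 1.96, 1.63 and 2.65 CPM in Cdr1as671 and 5.24, 3.93 and 5.28 CPM in WT (log2 change -1.23, SE 0.26, edgeR adjusted p = 0.0412). The cluster did not move as a whole: its median log2 change was -0.05, with 34 of 58 negative. Its abundant members miR-376a-3p and miR-381-3p had -0.43 and 0.29 and did not pass. The partner strands miR-409-3p and miR-496a-5p had -0.05 and 0.14. miR-544-3p had -0.65, close to its called partner and with all mutant libraries below all WT libraries, and none of the 3 passed.

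The remaining fallen miRNAs were let-7f-1-3p and miR-511-3p. let-7f-1-3p, a passenger strand of the let-7 family of differentiation-associated miRNAs, had 17.4, 22.2 and 25.4 CPM in Cdr1as671 and 41.9, 34.7 and 36.6 CPM in WT (log2 change -0.84, SE 0.16, edgeR adjusted p = 0.0276). The guide let-7f-5p, which other hairpins also encode, averaged 22450 CPM in Cdr1as671 and 24210 CPM in WT (log2 change -0.14). let-7b-3p shares the seed UAUACAA with let-7f-1-3p and is shown beside it.
mmu-let-7f-1-3p: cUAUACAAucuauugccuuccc
mmu-let-7b-3p: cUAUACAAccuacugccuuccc
let-7b-3p had 99.9, 125 and 99.7 CPM in Cdr1as671 and 237, 140 and 182 CPM in WT, without overlap, and did not pass (log2 change -0.83, SE 0.20, edgeR adjusted p = 0.0895). Of 10 tested let-7 passengers 1 fell and 7 were negative, against 1.5% fallen and 51.7% negative over all tested miRNAs. Their median was -0.21, or -0.69 over those of at least 10 CPM, and the 7 guides had a median of -0.04. miR-511-3p, from an intron of the macrophage mannose receptor gene Mrc1, had 1.45, 3.49 and 2.37 CPM in Cdr1as671 and 5.59, 5.32 and 6.37 CPM in WT (log2 change -1.29, SE 0.27, edgeR adjusted p = 0.0396). In bulk tissue, fewer macrophages and less of this RNA per macrophage cannot be told apart.

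**Figure D2:**
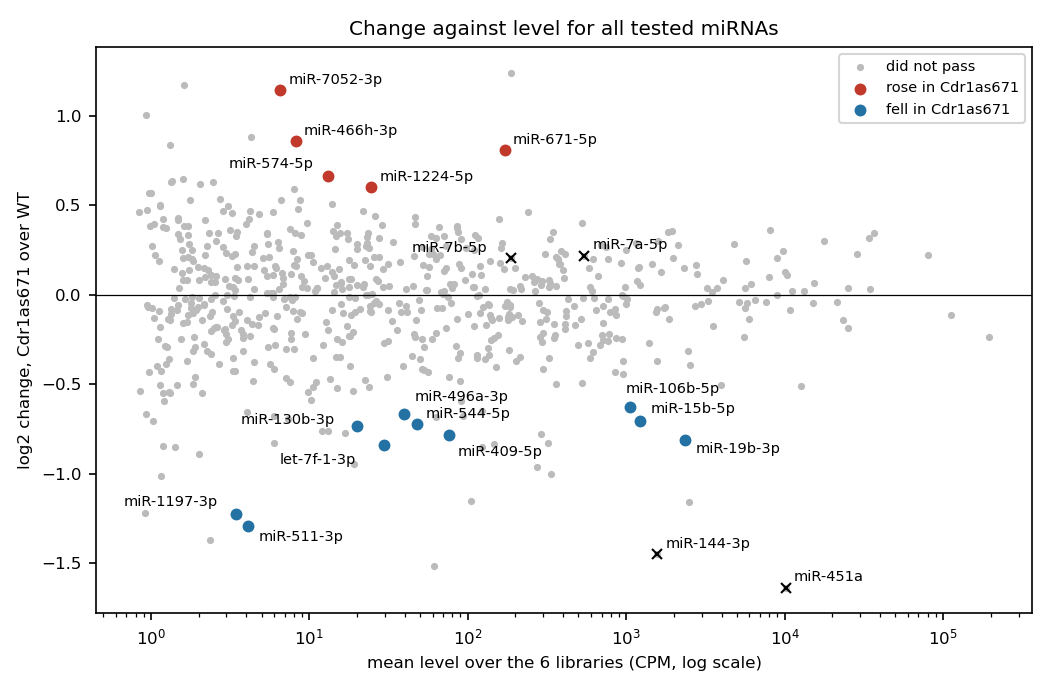
Log2 change of Cdr1as671 over WT (vertical axis) against the mean level over 6 libraries (horizontal axis, CPM, log scale) for the 665 tested miRNAs, with those that rose in red, those that fell in blue and 4 others marked by crosses. miR-671-5p stands at 0.81, and the erythroid miR-451a has a larger log2 change, -1.64, without passing.

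Among the rest, the lowest p-values belonged to miR-494-3p, miR-3106-5p, let-7b-3p, miR-151-3p and miR-137-3p. None passed, and their edgeR adjusted p ran from 0.0783 to 0.101. miR-137-3p, a neuronal miRNA, had 382, 420.0 and 533 CPM in Cdr1as671 and 616, 640.2 and 582 CPM in WT (log2 change -0.50). miR-151-3p had 317, 292 and 235 CPM in Cdr1as671 and 186, 220 and 191 CPM in WT (log2 change 0.46). The groups of both were apart, with the third mutant library nearest to WT. The most abundant miRNA, the neuronal miR-124-3p, had 174900 to 189800 CPM in Cdr1as671 and 189200 to 228600 CPM in WT (log2 change -0.24) and did not pass.

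Red-cell miRNAs and the strands of miR-142 varied widely between libraries of one genotype. The red-cell miRNA miR-451a had 708, 549 and 13690 CPM in Cdr1as671 and 12240, 5372 and 28410 CPM in WT, so Cdr1as671 libraries 1 and 2 stood far below the other 4. Its log2 change of -1.64 had an SE of 1.65 and did not pass (edgeR adjusted p = 0.666). The summed erythroid level of 3 tested miRNAs was 783, 603 and 16200 CPM in Cdr1as671 and 13910, 6326 and 32950 CPM in WT. None of the 3 passed or was at 0 in any library, and their median log2 change was -1.52, or -5.05 without Cdr1as671 library 3.

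The blood-cell miRNA miR-142-3p was likewise lowest in Cdr1as671 libraries 1 and 2, with 93.5, 106 and 449 CPM in Cdr1as671 and 336, 217 and 541 CPM in WT, and did not pass (log2 change -0.78, or -1.94 without Cdr1as671 library 3 and -0.37 without WT library 3 or Cdr1as671 library 1, and -0.40 without Cdr1as671 library 2). Of 7 tested immune miRNAs, 1 fell, which was miR-511-3p, and 6 were negative, against 1.5% fallen and 51.7% negative over all tested miRNAs. Their median was -0.22 and ran from -0.33 to 0.05 over the alternatives. Of the other members, miR-146a-5p was steady, with 133, 138 and 138 CPM in Cdr1as671 and 138, 141 and 134 CPM in WT (log2 change -0.05). The summed level of the list was 2971, 3072 and 2904 CPM in Cdr1as671 and 2726, 2620 and 3397 CPM in WT, with overlapping groups. That sum is dominated by miR-150-5p, the only positive member (log2 change 0.15), so it says little about the others. Many of the fallen miRNAs showed the same order among the mutant libraries: library 3 was nearest to WT in 7 of the 10 that fell and in 4 of the 5 that rose. How often this held over all tested miRNAs was not counted, so it cannot be called particular to the called miRNAs. By chi-square over miRNA counts, libraries 1 and 2 were closer to each other than to library 3. The correlation of log2(CPM + 1) separated them less, at 0.9952 against 0.9943 and 0.9914. The part of blood content in the changes of these miRNAs was not tested. RNA integrity numbers were 8.7 to 9.0 in Cdr1as671 and 8.9 to 9.1 in WT.

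**Figure D3:**
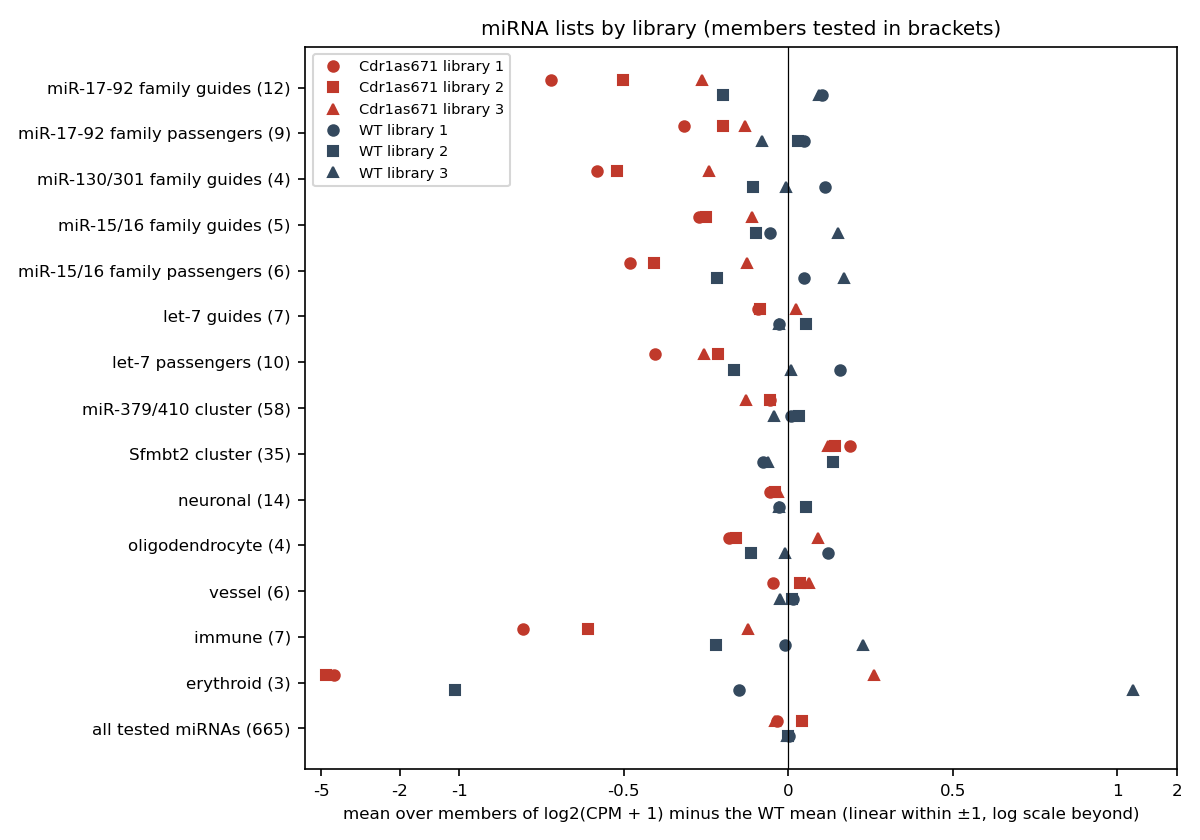
Mean over the tested members of each list (number in brackets) of log2(CPM + 1) minus the WT mean, for each Cdr1as671 library (red, upper) and WT library (dark, lower); the axis is linear within ±1 and logarithmic beyond. The miR-17-92 guides lie at -0.72, -0.50 and -0.26 in Cdr1as671 and at 0.10, -0.20 and 0.09 in WT, and the erythroid miRNAs at -4.29, -4.73 and 0.26 in Cdr1as671 and at -0.15, -1.05 and 1.20 in WT.

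The change of a miRNA correlated with its base composition in 2 of the 3 mutant libraries. Among miRNAs of at least 10 CPM with a known sequence (n = 350, which share their libraries), the deviation from the WT mean correlated across miRNAs with GC content at r = 0.41 and 0.33 in Cdr1as671 libraries 1 and 2 and at -0.14 in library 3. In WT libraries r was -0.15, 0.07 and 0.13, but these libraries make up the WT mean, so their r cannot all have the same sign. Over all tested miRNAs with a sequence, the log2 change correlated with GC content at r = 0.33. For the same deletion on the background without Cyrano r was 0.05. The 4 risen miRNAs with a sequence had a median GC content of 68.1% and the 10 fallen had 40.9%, against 50.0% over all tested miRNAs. With GC content as an offset in the test, 32 of 564 miRNAs passed and all 14 called miRNAs with a sequence remained among them. let-7b-3p, miR-19a-3p, miR-20a-5p and the miR-7 guides passed as well, and the change of miR-671-5p was 0.70 on the log2 scale (edgeR adjusted p = 0.0125).

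**Figure D4:**
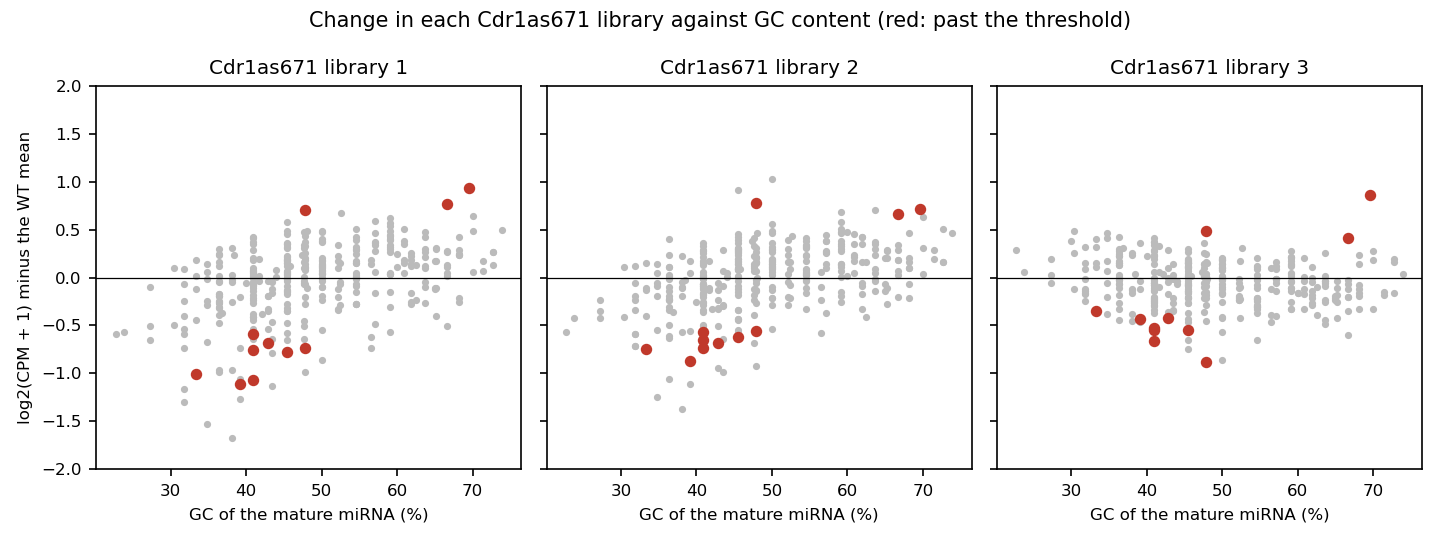
Log2(CPM + 1) minus the WT mean (vertical axis) against the GC content of the mature miRNA in percent (horizontal axis) in each Cdr1as671 library, for 350 miRNAs of at least 10 CPM, with those that passed in red; 8 points over the panels lie outside the axes. The cloud rises with GC content in libraries 1 and 2 (r = 0.41 and 0.33) and not in library 3 (r = -0.14).

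On the background without Cyrano, the same deletion gave a second comparison that shares no library with the first. There, 23 of 658 miRNAs passed (3.5%), 8 risen (1.22%) and 15 fallen (2.28%) in CyrKOCdr1as671. Both comparisons called 6 miRNAs, 6 of the 15 and 6 of the 23 (26.1%). miR-466h-3p rose in both, and miR-409-5p, miR-496a-3p, miR-106b-5p, miR-130b-3p and miR-15b-5p fell in both. All 15 miRNAs called against WT had the same sign on the CyrKO background, and 14 of them had a smaller log2 change there. Since the 15 were selected by their change against WT, the smaller changes do not show a weaker effect without Cyrano. The log2 changes of the comparisons correlated across 647 miRNAs, leaving out the miR-7 guides, at r = 0.55 (Spearman rho 0.50), and 69.7% had the same sign, with miRNAs of one library not independent of each other.

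miR-671-5p set itself apart between the backgrounds. It had 220, 232 and 231 CPM in CyrKOCdr1as671 and 242, 218 and 217 CPM in CyrKO, with overlapping groups (log2 change 0.08, SE 0.09, edgeR adjusted p = 0.591). CyrKOCdr1as671 and CyrKO libraries were thus all near the level of the Cdr1as671 libraries, and WT cerebellum was lower. The effect of the deletion differed between the backgrounds by -0.75 on the log2 scale (interaction in a fit of the 12 cerebellum libraries, edgeR adjusted p = 0.0430), 1 of 688 miRNAs to pass (0.145%). The interaction no longer passed without Cdr1as671 library 1, or without any 1 library of WT, CyrKOCdr1as671 or CyrKO, with values of -0.65 to -0.75 and edgeR adjusted p of 0.0991 to 0.301. For the other called miRNAs the lowest adjusted p of the interaction was 0.863.

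The miR-7 guides passed in the second comparison, with log2 changes of 0.97 for miR-7a-5p and 0.93 for miR-7b-5p (edgeR adjusted p = 9.07e-05 each). Their interaction did not pass (edgeR adjusted p = 0.168 each). The passengers miR-7a-1-3p and miR-7b-3p fell in the second comparison, with log2 changes of -0.50 and -0.62, and miR-7a-2-3p had 0.03 and did not pass. The miR-17-92 guides were negative in 12 of 12 on the CyrKO background too, with a median of -0.37 against a median of 0.01 over all miRNAs. The passengers of that family were negative in 6 of 9 there, with a median of -0.07. On that background let-7b-3p fell (log2 change -0.85, edgeR adjusted p = 0.00254). miR-17-5p and miR-20a-5p also fell there, with log2 changes of -0.59 and -0.71. miR-19b-3p, in contrast, had -0.27 and did not pass.

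**Figure D5:**
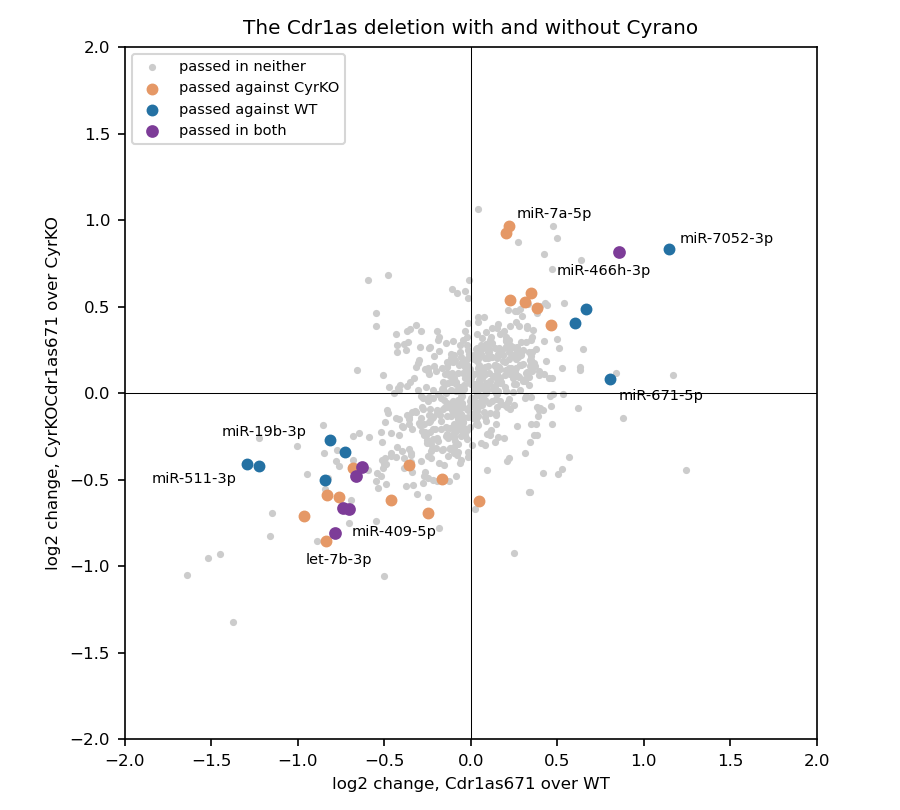
Log2 change of CyrKOCdr1as671 over CyrKO (vertical axis) against that of Cdr1as671 over WT (horizontal axis) for 649 miRNAs tested in both comparisons, coloured by the comparison in which they passed. miR-671-5p lies at 0.81 and 0.08, miR-7a-5p at 0.22 and 0.97, and the 5 miRNAs that fell in both lie in the lower left.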

How the data were processed

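Per the labels' protocols, total RNA was taken with Trizol from flash-frozen tissue, libraries were made from 5 ug, with size selection for 18 to 32 nt. The submitters' processing notes name cutadapt and DESeq2 1.10. The sources used here do not say how reads were assigned to miRNAs, or with which annotation and genome build. As raw data, the authors deposited read counts per mature miRNA, whole numbers that were tested here. Their size-factor-normalised signal, per the file headers, was not used. Their log2 fold changes and adjusted p-values, per the file headers, served as an alternative source of calls, and their test statistic, a score per the file headers, was not used.

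Counts were tested in R 4.3.3 with edgeR 4.0.16: filterByExpr (minimum count 10, minimum total 15), TMM scaling, the robust quasi-likelihood F-test and Benjamini-Hochberg adjustment over all tested miRNAs at 0.05. "Rose" and "fell" refer to this threshold. The SE is the log2 change over the square root of F. The second pair of groups was fitted in its own 6 libraries, and the interaction in the 12 cerebellum libraries. DESeq2 1.42.0 was an alternative. The procedure was also run on simulated counts. These held no deviating library and no trend with GC content, so they cannot show how the calls behave under either. CPM uses the library's total miRNA count, so precision is that of 8599697 to 12209429 reads.

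The members, the 21 lists and the alternatives were chosen with earlier results of these data known. Named were all strands of miR-671 and miR-7, all miRNAs past the threshold and their partner strands, the 5 lowest p-values among the rest, up to 6 abundant members per list and the 10 most abundant miRNAs. Sequences were matched by name for 84.8% of tested miRNAs.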

Additional observations from a re-analysis of the deposited data

Results flagged for a closer look

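The effect of the Cdr1as deletion on miR-671-5p differed between the backgrounds with and without Cyrano. The difference was -0.747 on the log2 scale (edgeR interaction test over 688 miRNAs, adjusted p = 0.0430), from a change of 0.08 against CyrKO and a change of 0.81 against WT. The 3 Cdr1as671 libraries were all above the 3 WT libraries, while the CyrKOCdr1as671 and CyrKO libraries overlapped.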

How the results depend on the processing

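The count of 15 miRNAs became 4 with the size factors of DESeq2 in edgeR, 30 with DESeq2 itself, 53 with no filter on low counts, 3 with a mean of at least 10 CPM, 3 without the 10 most abundant miRNAs, 32 with a GC offset, 42 in a fit of all 12 cerebellum libraries, 1 in that fit less Cdr1as671 libraries 1 and 2, and 26 by the authors' deposited adjusted p, of 416 miRNAs (6.25%). Leaving out 1 library gave 0 to 112. The cause was not tested. miR-671-5p passed under all 12 alternatives other than leaving out 1 library, at log2 changes of 0.69 to 0.93, and in 3 of 6 fits without 1 library. Of the 76 named and tested miRNAs, some that did not pass did so elsewhere: 6 with the GC offset (the miR-7 guides among them), 10 with DESeq2 and 24 without Cdr1as671 library 3. By the authors' deposited adjusted p 10 passed, among them miR-17-5p, let-7b-3p, miR-544-3p, miR-151-3p and miR-137-3p. The median of the miR-7 guides ran from 0.08 to 0.54. The 14 called miRNAs beside miR-671-5p lost their call under some alternatives and none changed sign. Replicate numbers did not pair the samples (same-number correlations -0.43, -0.27 and 0.36). With the replicate number as a block 42 passed, and 49 with block and GC offset.

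On the CyrKO background the count of 23 became 71 with no filter and 3 to 65 without 1 library. The interaction count of 1 became 4 with DESeq2, 4 with no filter, 0 with the replicate block (28 at an unadjusted p under 0.05, edgeR) and 0 to 19 without 1 library. The log2 strand ratio of miR-671 kept its direction, at 0.72 to 1.02 without 1 library.

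Some named values changed sign. miR-106b-3p had 0.0 with the size factors of DESeq2 in edgeR, 0.0265 with library totals, 0.0003 with DESeq2, 0.0104 with no filter, 0.0003 in the fit less Cdr1as671 libraries 1 and 2, 0.0002 in the authors' deposited table, and -0.0578 to 0.0401 without 1 library. With the GC offset, miR-7a-1-3p had 0.0216, let-7f-5p 0.2251 and miR-146a-5p 0.1276, and with the block too they had 0.0169, 0.224 and 0.1269. In the 12-library fit less Cdr1as671 libraries 1 and 2, the values were -0.2465 for miR-7b-3p, 0.1547 for let-7f-5p, -0.1634 for miR-1224-3p, 0.1107 for miR-25-3p, 0.0263 for miR-301a-3p, 0.1363 for miR-144-3p, 0.0466 for miR-144-5p, 0.3611 for miR-142-3p, 0.0604 for miR-146a-5p and 0.022 for miR-142-5p. Without 1 library, miR-7b-3p ran from -0.2028 to 0.4754, miR-671-3p from -0.1649 to 0.0393, miR-409-3p from -0.1254 to 0.0338, miR-496a-5p from -0.0763 to 0.3881, miR-29b-3p from -0.0769 to 0.244, miR-16-5p from -0.0097 to 0.1039 and miR-25-3p from -0.3379 to 0.0312.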

Other observations

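Other cell-type lists held no called miRNA. Of 14 neuronal miRNAs tested, 8 were negative, with a median log2 change of -0.05. The neuronal miR-9-3p had 8788, 9735 and 13090 CPM in Cdr1as671 and 14660, 14830 and 14540 CPM in WT, without overlap, and did not pass (log2 change -0.51, SE 0.15, edgeR adjusted p = 0.105). Of 4 oligodendrocyte miRNAs, 3 were positive with a median of 0.22, yet the fourth, miR-219a-5p, had 1040, 1277 and 2422 CPM in Cdr1as671 and 4405, 2273 and 3641 CPM in WT (log2 change -1.16, SE 0.48, edgeR adjusted p = 0.274). The vessel list had a median of -0.09 over 6 miRNAs, and its smooth-muscle miR-143-3p had 2248, 2035 and 1952 CPM in Cdr1as671 against 1563, 1673 and 1532 CPM in WT (log2 change 0.35, SE 0.10, edgeR adjusted p = 0.105). On the CyrKO background miR-143-3p rose, with a log2 change of 0.58 (edgeR adjusted p = 0.00769). The choroid plexus list had a median of 0.04 over 8 miRNAs.

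Of 54 listed miRNAs of the Sfmbt2 cluster, 35 were tested, 23 were positive and 1 rose, against 321 of 665 positive and 0.752% risen over all tested miRNAs. The median was 0.17, or 0.27 without WT library 2, and on the CyrKO background it was 0.25. With a GC offset it was 0.60, but only over the few members with a sequence, miR-466i-3p, miR-466k and miR-466q. Without the offset these had log2 changes of 0.31, 0.47 and -0.07. Strands of this cluster are near-identical, so reads can be split among them. miR-669c-5p had 79.2, 74.9 and 71.2 CPM in Cdr1as671 and 58.6, 53.7 and 56.2 CPM in WT, without overlap, and did not pass (log2 change 0.38, SE 0.11, edgeR adjusted p = 0.106). Other reported targets of directed miRNA degradation, 3 in number, had a median of -0.48 and none passed. miR-322-5p and miR-503-5p had -0.48 and -0.49. miR-29b-3p, the most abundant of them, had 10270, 9310 and 13160 CPM in Cdr1as671 and 9656, 10050 and 9912 CPM in WT (log2 change 0.11), and it passed with a GC offset, at 0.41. miR-125b-5p and miR-125a-5p, among the 10 most abundant miRNAs, had log2 changes of 0.35 and 0.32 and did not pass.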
